A study of Mus musculus with 28 samples.

Results

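The comparison described here is that of the right ventricle (RV) with the left ventricle (LV) in hearts treated with the higher dose of the gene therapy vector TN-401. Its members were chosen by label: the 3 animals titled Pkp2KO_6E13, numbered 250, 631 and 645, each with 1 RV library and 1 LV library, so 6 libraries of 28 in the series. All 3 were mice with a tamoxifen-induced deletion of Pkp2 in heart muscle cells (αMyHC-Cre-ER(T2) driving recombination of floxed Pkp2; cKO), and all 3 received TN-401, an AAV9 vector carrying human PKP2, at 6E13 vg/kg 1 week before tamoxifen. The same fit held 3 animals without Cre (WT, Pkp2 fl/fl) given the buffer HBSS, 4 cKO animals given HBSS and 2 cKO animals given the vector at 3E13 vg/kg, each with both ventricles, 24 libraries of 12 animals in all. The WT animals were littermates, so WT and cKO differ by the Cre transgene as well as by the deletion. Whether the WT animals received tamoxifen is not given in the sources used here. All animals were of the C57BL6 strain. The series is described as lasting about 10 weeks, and the labels give no age. Cre under the αMyHC promoter acts in heart muscle cells only, so the other cells of each piece of ventricle kept mouse Pkp2.

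The ventricles are built from different pools of embryonic progenitors. The left ventricle forms from the first heart field, and the right ventricle largely from the second, and adult ventricles keep small differences in transcription factors, ion channels, matrix and resident cells. The left ventricle pumps against systemic pressure and has a thick wall, while the right ventricle is thin and works at low pressure. PKP2 is plakophilin-2, a desmosomal protein that anchors intermediate filaments at the junctions between heart muscle cells. Its loss is the most common genetic basis of arrhythmogenic cardiomyopathy, a disease long named after the right ventricle, in which muscle is replaced by fibrous and fatty tissue. The comparison asks which transcripts differed between the ventricles of a heart that carried the human transgene, and whether those differences were those of WT or untreated cKO hearts.

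The 6 libraries held 22964339 to 34984848 counts and 16026 to 17168 genes with at least 5 counts. Transcripts of the mitochondrial genome made up 33.7% ± 3.51 (SD, n = 3) of counts in LV and 31.9% ± 3.00 in RV, a difference within the spread of the pairs (−1.86 ± 3.37 percentage points, RV lower in 2 of 3 pairs, two-sided exact permutation p = 0.5, where 3 pairs allow no p below 0.25). Libraries were compared over all genes by the SD of their log2 CPM differences (CPM, counts scaled to library size by TMM). This distance averaged 0.858 between the 2 ventricles of 1 animal given 6E13, with a range of 0.798 to 0.901. Between different animals it was 0.923 for LV and 0.880 for RV, so the ventricles of a heart were about as far apart as the same ventricle of 2 hearts. Atrial muscle, which a piece of ventricle can carry, left almost no trace: Myl7, the atrial myosin light chain, was at 0 in 5 of 6 libraries and at 0.342 CPM in the RV of animal 645, and Sln was at 0 in 5 of 6. In cKO libraries Myl7 reached 83.7 CPM.

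The transgene and the deleted gene were read first. Human PKP2 was at 564, 352 and 390 CPM in the LV of animals 250, 631 and 645, and at 449, 295 and 285 CPM in their RV. RV was lower in 3 of 3 pairs, by a log2 fold difference of −0.35 ± 0.09 (SE). The adjusted p was 0.766 (edgeR quasi-likelihood test, Benjamini-Hochberg over all genes), and the exact permutation p over the 3 pairs was 0.25, the smallest they allow. The LV and RV values overlapped between animals, and all WT and buffer-treated cKO libraries were at 0. Mouse Pkp2 was at 37.8, 45.7 and 41.1 CPM in LV and at 42.1, 41.9 and 33.5 CPM in RV, a log2 difference of −0.09 ± 0.12, with adjusted p = 0.967. All 6 values were below the 109 to 130.1 CPM of the WT libraries.

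Of 17981 genes tested at 6E13, 2 passed an adjusted p of 0.05, both higher in RV, which is 0.0111% of all genes. They were H2-Aa and Cd74, both of the MHC class II pathway, by which antigen-presenting cells show peptides to CD4+ T cells. Without adjustment, 1000 genes had p under 0.05, 5.56% of all, of which 620 were higher (3.45%) and 380 lower in RV (2.11%). The median SE of a log2 difference was 0.23, and the median size of a difference 0.17. In buffer-treated cKO hearts the same test called 733 genes (4.08% of all), 340 higher (1.89%) and 393 lower in RV (2.19%), and in WT hearts 1, Atf5, lower in RV (0.00556%).

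**Figure D1:**
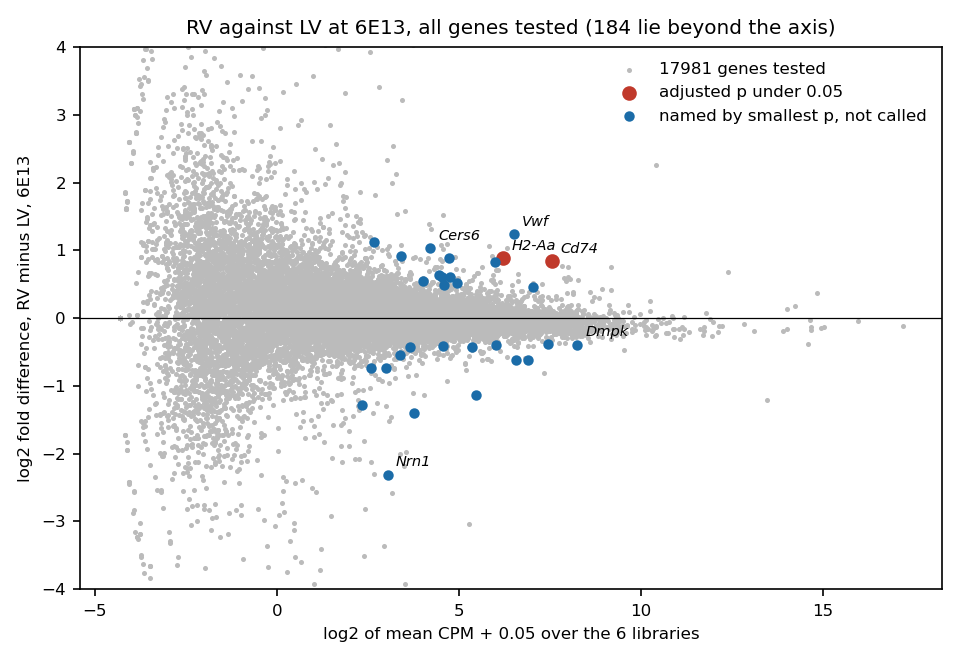
Log2 fold difference between RV and LV at 6E13 (vertical axis) against the log2 mean CPM over the 6 libraries (horizontal axis), 1 point per gene tested. The 2 called genes, in red, are H2-Aa and Cd74, and the genes named by smallest unadjusted p, in blue, did not pass.

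H2-Aa encodes the alpha chain of the class II molecule I-A, and Cd74 the invariant chain that fills its groove until a peptide is loaded. H2-Aa was at 63.7, 50.9 and 42.1 CPM in the LV of animals 250, 631 and 645, and at 109, 87.7 and 90.6 CPM in their RV. All 3 RV values were above all 3 LV values, and the log2 difference was 0.89 ± 0.11 (SE, adjusted p = 0.0419, edgeR). Cd74 was at 181, 116 and 114 CPM in LV and at 288, 197 and 241 CPM in RV, again without overlap, with a log2 difference of 0.84 ± 0.11 (adjusted p = 0.0419, edgeR). Non-overlap of this kind, RV above LV, held for 5.67% of all genes. Both calls were close to the threshold: over 23 other settings H2-Aa was called in 10 and Cd74 in 9, and RV was higher in 23 of 23 for each. In a fit of the 3 animals given 6E13 alone, neither gene was called. Without the replicate block, that is without pairing the ventricles by animal, neither was called (adjusted p = 1.0, and 0 genes in all), and leaving out any 1 of the 3 animals given 6E13 also ended both calls (adjusted p from 0.169 to 0.414 for H2-Aa).

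The same direction was measured in hearts without the vector. RV exceeded LV in 3 of 3 WT pairs and in 4 of 4 cKO pairs for H2-Aa and for Cd74. In WT animal 637 the log2 difference was near 0, at 0.03 for each gene. With the vector-treated pairs at 3E13 and 6E13 counted in, it was 12 of 12 for each. The 6E13 pairs among them chose these genes. The log2 difference of H2-Aa was 0.32 ± 0.11 in WT and 0.72 ± 0.09 in cKO hearts (adjusted p = 0.00347), and that of Cd74 was 0.20 ± 0.11 and 0.57 ± 0.09 (adjusted p = 0.00878 in cKO, edgeR). For H2-Aa, 6E13 exceeded WT by 0.57 ± 0.15 on the log2 scale with an unadjusted p of 0.00292, and for Cd74 by 0.64 ± 0.15 with an unadjusted p of 0.00114, and neither passed after adjustment (edgeR). Both genes were chosen by their 6E13 values, which this contrast uses again, and that choice draws these differences away from 0. In level, the WT libraries were lowest for H2-Aa, at 22.2 ± 8.06 CPM in LV and 28.9 ± 14.8 in RV (SD, n = 3), beside 52.2 ± 10.8 and 95.8 ± 11.7 at 6E13. The cKO libraries were at 65.3 ± 24.7 and 107 ± 41.1 CPM (SD, n = 4). The 2 hearts given 3E13 had the highest means, at 78.45 and 100.1 CPM in LV and 167.2 and 207.9 CPM in RV, and their log2 differences of 1.09 and 1.05 were larger than those of animals 250 and 631.

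The 9 other genes of the class II list, a list drawn up after these values were seen, also had a higher fitted level in RV at 6E13. Over all 11 genes, the 2 called ones that prompted the list included, the median log2 difference was that of H2-Aa itself, 0.89, beside 0.01 over all genes tested. H2-Ab1, the beta chain that pairs with H2-Aa, was at 62.8, 42.2 and 34.99 CPM in LV and at 95.7, 70.0 and 77.8 CPM in RV, a log2 difference of 0.83 ± 0.12 that just missed the threshold (adjusted p = 0.0826, edgeR). H2-DMb1, part of the H2-M complex that exchanges the invariant chain fragment for peptide, was at 4.75, 2.08 and 1.81 CPM in LV and 7.31, 5.95 and 5.25 CPM in RV. Its 3 RV values also lay above all LV values, with a log2 difference of 1.20 ± 0.23 and adjusted p = 0.259. H2-Eb1, the beta chain of the second class II molecule, was higher in RV in 2 of 3 hearts, at 16.4, 6.80 and 7.29 CPM in LV against 15.5, 13.0 and 15.7 CPM in RV. Ciita, the master regulator of class II transcription, was between 4.62 and 6.86 CPM in LV and between 4.71 and 10.3 CPM in RV, and its log2 difference of 0.37 ± 0.26 did not pass (adjusted p = 0.923). The remaining members were below 3 CPM.

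**Figure D2:**
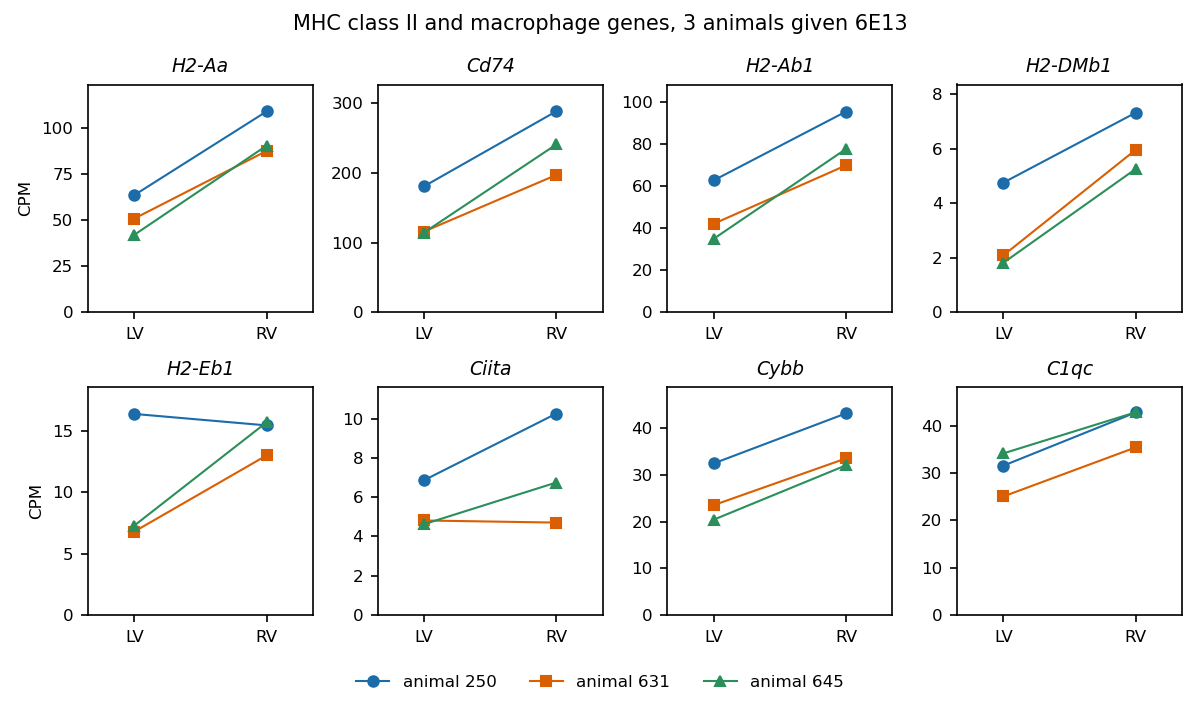
CPM (vertical axes, each starting at 0) in LV and RV of the 3 animals given 6E13, 1 line per animal, for 6 genes of the class II pathway and the macrophage genes Cybb and C1qc. The lines of H2-Aa, Cd74, H2-Ab1, H2-DMb1, Cybb and C1qc rise from LV to RV in 3 of 3 animals, whereas those of H2-Eb1 and Ciita rise in 2 of 3.

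Class II genes are known to be switched on together through a set of promoter boxes, of which the Y box carries an inverted CCAAT sequence bound by NF-Y. The 250 bases before the start of H2-Aa are shown because it is a called gene, and those of H2-Eb1 and H2-DMb1, chosen after their values were seen, because they let the shared letters be read beside a called gene. The sequences are those of RefSeq on GRCm38.p6, 5′ to 3′ on the strand of the gene, at chr17:34287824-34288073 on the minus strand, chr17:34305617-34305866 on the plus strand and chr17:34152941-34153190 on the plus strand. Capitals mark each match to GATTGG or its reverse complement CCAATC:
H2-Aa: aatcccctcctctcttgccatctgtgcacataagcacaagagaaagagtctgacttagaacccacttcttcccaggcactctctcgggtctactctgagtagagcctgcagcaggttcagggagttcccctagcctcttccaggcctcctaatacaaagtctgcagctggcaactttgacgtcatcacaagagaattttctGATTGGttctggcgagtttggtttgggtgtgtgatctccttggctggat
H2-Eb1: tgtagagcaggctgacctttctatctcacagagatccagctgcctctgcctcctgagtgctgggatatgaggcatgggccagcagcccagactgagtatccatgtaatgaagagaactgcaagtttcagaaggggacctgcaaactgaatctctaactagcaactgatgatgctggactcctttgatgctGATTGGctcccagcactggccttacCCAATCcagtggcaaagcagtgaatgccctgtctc
H2-DMb1: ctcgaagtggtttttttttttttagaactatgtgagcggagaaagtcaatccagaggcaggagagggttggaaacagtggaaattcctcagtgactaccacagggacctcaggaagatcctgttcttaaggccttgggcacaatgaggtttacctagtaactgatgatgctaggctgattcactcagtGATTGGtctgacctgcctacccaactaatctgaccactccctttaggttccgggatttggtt

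GATTGG on the gene's own strand ended 43, 54 and 56 bases before the start in H2-Aa, H2-Eb1 and H2-DMb1. It was present on either strand in 8 of the 8 class II members with a promoter sequence at hand, beside 14.5% of 32817 promoter windows of 250 bases. Cd74, H2-Ab1 and Ciita had no such sequence. A member counted if any of its windows matched, whereas the share is per window, so the values are not of the same unit. The match is a description of letters shared by genes whose RV values differed from LV to different degrees. In GRCm39 (GENCODE M39), H2-Aa lies at chr17:34493404-34506798 on the minus strand and H2-Eb1 at chr17:34504236-34535648 on the plus strand, so the gene models overlap at one end. The library kit was stranded, and whether strand was used in counting is not given in the sources used here.

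The levels of other genes of antigen-presenting cells were set beside those of class II. Of 17 macrophage and monocyte markers, 13 had a higher fitted level in RV and 11 were higher in 3 of 3 pairs (16.6% of all genes were). An unadjusted p under 0.05 on the RV side was found for 6 (3.45% of all genes), and 0 were called, with a median log2 difference of 0.38. Their summed level was 199.7 to 249 TPM in LV and 254 to 356 TPM in RV, so the 2 ranges did not meet. C1qc, a complement subunit made by resident macrophages, was at 31.5, 25.04 and 34.1 CPM in LV and at 42.8, 35.4 and 42.8 CPM in RV. Csf1r, the receptor on which macrophages depend for survival, was at 48.0, 35.6 and 36.2 CPM in LV against 65.5, 54.0 and 51.2 CPM in RV. Ccr2, the chemokine receptor of recruited monocytes, was at 24.01, 14.5 and 6.25 CPM in LV against 50.0, 26.5 and 15.9 CPM in RV, with a log2 difference of 1.08 ± 0.33 (adjusted p = 0.793). Cd14 was low, at 2.46 to 3.52 CPM in LV and 3.78 to 5.42 CPM in RV. In bulk tissue more cells of a type and more RNA per cell cannot be told apart.

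Dendritic cell markers and MHC class I, 2 more lists added after the values were seen, gave smaller medians than class II. Of 12 dendritic cell markers 10 had a higher fitted level in RV, with a median log2 difference of 0.48. That value rested on animal 645: the pair medians were 0.10, 0.15 and 0.98 in animals 250, 631 and 645, and the fitted median without animal 645 was 0.18. Itgax, which encodes the integrin CD11c, was at 4.19, 2.68 and 1.24 CPM in LV against 8.84, 4.06 and 3.71 CPM in RV, while Zbtb46, a transcription factor of classical dendritic cells, was at 30.5 to 35.8 CPM in LV and 28.9 to 32.8 CPM in RV. Irf8 had a log2 difference of 0.46 ± 0.20 (adjusted p = 0.896). Of 15 class I genes 10 were on the RV side, with a median of 0.12. B2m, the light chain of every class I molecule, was at 318, 349 and 332 CPM in LV against 321, 395 and 373 CPM in RV, and the heavy chain genes H2-K1 and H2-D1 had log2 differences of 0.20 ± 0.09 and 0.19 ± 0.09 (adjusted p = 0.896 and 0.908, edgeR). For interferon response genes, which often move with class I, 17 of 25 were on the RV side with a median of 0.11. The 4 with the smallest p were Irgm2 (0.38 ± 0.18), Oasl2 (0.28 ± 0.16), Gbp2 (0.31 ± 0.18) and Stat2 (−0.22 ± 0.12), 0 of which was called. Of 13 T, NK and B cell markers tested, 8 were on the RV side and 0 were called. Their fitted median was 0.20, with pair medians of 0.32, 0.55 and 0.60 in animals 250, 631 and 645. The summed level of these markers was 5.07 to 16.6 TPM in LV and 9.47 to 16.1 TPM in RV.

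The 13 genes that came next by unadjusted p on the RV side were not called. Dock10, a guanine nucleotide exchange factor of leukocytes, was at 26.7, 19.3 and 17.7 CPM in LV and 41.2, 29.6 and 26.6 CPM in RV, a log2 difference of 0.61 ± 0.08 (adjusted p = 0.0607, edgeR). Itga4, the integrin chain by which leukocytes enter tissue, was at 20.8, 17.9 and 12.6 CPM in LV and 30.05, 28.3 and 20.9 CPM in RV. Cybb, the catalytic subunit of the phagocyte oxidase, had a log2 difference of 0.52 ± 0.11, and Rassf4 one of 0.48 ± 0.10. For Itga4 and Rassf4 the ventricles did not overlap, and for Dock10 and Cybb they did, with animal 250 highest in both ventricles.

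Vwf, the adhesive glycoprotein stored by endothelial cells, had among the largest values of these genes: 61.4, 43.2 and 56.6 CPM in LV against 132, 95.6 and 156 CPM in RV, with a log2 difference of 1.24 ± 0.22 (adjusted p = 0.240). Endothelial markers as a list were not on the same side. Of 12 such markers 3 were on the RV side and 9 on the LV side, with a median of −0.12. Kdr, the main VEGF receptor, was at 222, 274 and 194 CPM in LV against 185, 235 and 182 CPM in RV. Cldn5, a tight junction protein, was at 8.62, 22.4 and 12.5 CPM in LV against 6.58, 14.5 and 12.04 CPM in RV. Egfl7 was at 47.3, 37.5 and 47.3 CPM in LV against 24.8, 33.4 and 25.2 CPM in RV. Vwf was also higher in RV in cKO hearts (1.08, adjusted p = 0.0131, edgeR), and its value in WT was 0.49.

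Cers6, a ceramide synthase, was at 13.3, 13.1 and 10.0 CPM in LV and 27.7, 24.8 and 21.7 CPM in RV, again without overlap (1.03 ± 0.20, adjusted p = 0.259). Cyp1b1, a cytochrome P450 of stromal cells, had a log2 difference of 0.91 ± 0.18 and passed the test in cKO hearts (0.83, adjusted p = 0.0131). Tmem176b and Tmod2, an actin-capping tropomodulin, had differences of 0.60 ± 0.13 and 0.54 ± 0.12 at 6E13 (adjusted p = 0.370 and 0.399) and were called in cKO hearts at 0.78 and 0.85 (adjusted p = 0.00466 and 0.00317, edgeR). The last of the group, RP24-370G18.1, was at 2.48 to 6.13 CPM in LV and 6.75 to 10.9 CPM in RV.

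Matrix genes lay on the RV side in nearly all cases. Of 38 genes of extracellular matrix and fibrosis, 36 had a higher fitted level in RV, 29 were higher in 3 of 3 pairs (16.6% of all genes were) and 22 had an unadjusted p under 0.05 on the RV side (3.45% of all genes), but 0 were called. The median log2 difference of the list was 0.55, and the animals differed: 0.86 in animal 250, 0.44 in animal 631 and 0.25 in animal 645. Col6a3, a chain of collagen VI, was at 146, 103 and 77.0 CPM in LV against 226, 135 and 98.2 CPM in RV (0.46 ± 0.10, adjusted p = 0.370, edgeR). Ltbp2, which binds to elastic microfibrils, was at 25.7, 24.7 and 5.63 CPM in LV against 57.4, 35.2 and 11.4 CPM in RV. Lox, the enzyme that cross-links collagen, was at 26.8, 15.7 and 3.58 CPM in LV against 60.2, 20.3 and 7.90 CPM in RV. Mmp14, a membrane-bound metalloprotease, was at 25.3, 21.9 and 11.0 CPM in LV against 46.1, 24.9 and 16.5 CPM in RV. In each of these the animals stood in the same order in both ventricles, with animal 250 highest and animal 645 lowest, and RV and LV overlapped.

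In WT hearts the same matrix list pointed the other way, with pair medians of −0.38, −0.14 and −0.40, and in cKO hearts it pointed to RV, with pair medians from 0.13 to 0.67. The difference of the list median between groups was not tested. For single genes it was: the RV effect of Col6a3 at 6E13 exceeded that of WT by 0.93 on the log2 scale, the smallest p of any gene in that comparison (unadjusted p = 2.26e-05, adjusted p = 0.407, edgeR).

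Resting fibroblasts, the main source of matrix in the heart, were read from 13 marker genes. All 13 had a higher fitted level in RV, 9 of them in 3 of 3 pairs (16.6% of all genes were). Of the 13, 5 had an unadjusted p under 0.05 on the RV side (3.45% of all genes did) and 0 were called. The median log2 difference was 0.38 (0.32, 0.44 and 0.31 by animal). The summed level was 419 to 622 TPM in LV and 618 to 782 TPM in RV. Pdgfra, the receptor that marks cardiac fibroblasts, was at 48.9, 66.3 and 49.6 CPM in LV against 61.3, 81.7 and 71.0 CPM in RV. Lum, a small proteoglycan of collagen fibrils, was at 84.4, 73.5 and 63.0 CPM in LV against 127, 101 and 83.5 CPM in RV, and Ddr2, a collagen receptor, had a log2 difference of 0.24 ± 0.09. Col1a1, the main fibrillar collagen, varied most between animals, at 399, 179 and 117 CPM in LV against 763, 286 and 123 CPM in RV. The fibroblast median was larger in cKO hearts (0.95, with 7 of 13 called higher in RV, beside 1.89% of all genes) and 0.11 in WT hearts. Of the other stromal lists, 6 of 7 valve interstitial markers and 5 of 6 endocardial markers were on the RV side (medians 0.59 and 0.42) and 4 of 8 pericyte markers were (median 0.02), with 0 called in any of the 3. The pair medians were 0.79, 0.45 and 0.24 for valve and 0.27, 0.78 and 0.04 for endocardial markers. The valve median was 0.22 on log2(TPM + 1), and the endocardial median was 0.20 without animal 631. The part of these cell types in the matrix and class II values was not tested.

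**Figure D3:**
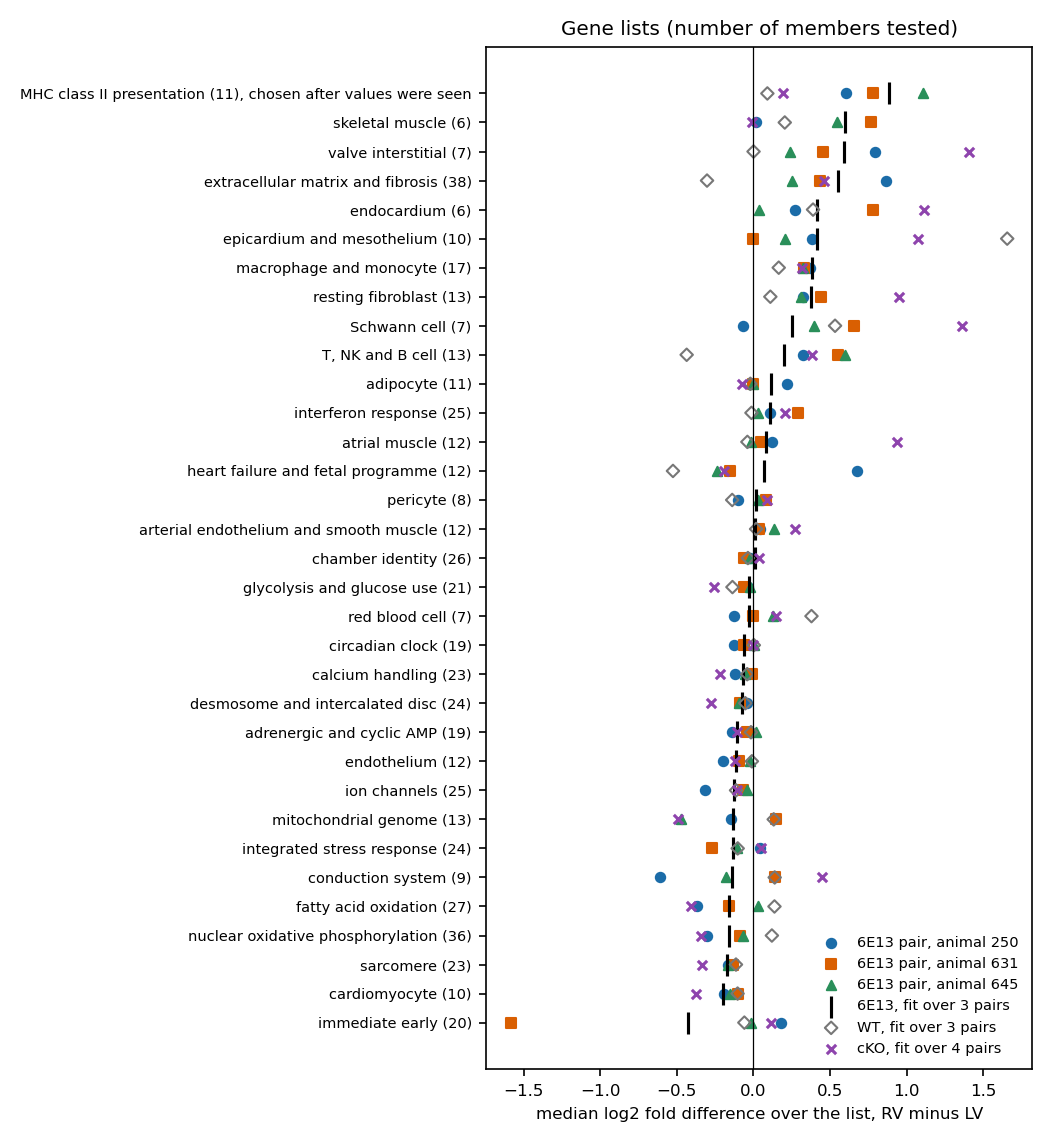
Median log2 fold difference, RV minus LV (horizontal axis), of each gene list (vertical axis, with the number of members tested), for each of the 3 pairs at 6E13, for the fit over those pairs, and for the fits in WT and cKO hearts. The 3 pairs lie above 0 for class II, matrix, macrophage and fibroblast genes. They lie below 0 for sarcomere and cardiomyocyte genes, whose lists share members. Other lists with all pairs above 0 are T, NK and B cell, interferon, valve, endocardial, arterial and skeletal muscle. Those with all pairs below 0 are desmosome, calcium handling, ion channel, endothelial, nuclear oxidative phosphorylation, glycolysis and chamber identity. The immediate early list is set apart by animal 631.

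Genes of heart muscle lay on the LV side, by smaller differences. Of 23 sarcomere genes 22 had a lower fitted level in RV, 13 of them in 3 of 3 pairs (14.8% of all genes were), with a median log2 difference of −0.18 and 0 called, and of 10 cardiomyocyte markers 10 were lower with a median of −0.20. All of these markers but Ryr2 and Mb are also in the sarcomere list, so the lists do not give separate results. Actn2, the alpha-actinin of the Z disc, was at 1862, 1810.1 and 1926 CPM in LV against 1601, 1487 and 1735 CPM in RV (−0.22 ± 0.10, adjusted p = 0.896, edgeR). Tnni3, cardiac troponin I, Tcap, the titin cap, and Myl3, the ventricular essential light chain, had log2 differences of −0.27 ± 0.16, −0.30 ± 0.15 and −0.24 ± 0.15. In WT the sarcomere median was −0.11 and in cKO −0.34.

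Most genes of energy metabolism had a lower fitted level in RV, and 0 of them were called. Of 27 genes of fatty acid oxidation 26 had a lower fitted level in RV, with a median of −0.16, and the pair medians were −0.37, −0.16 and 0.03. Acadvl, the first dehydrogenase for very long chains, was at 290.2, 332 and 295 CPM in LV against 209.8, 290.1 and 282 CPM in RV, and Hadha and Acadl had log2 differences of −0.26 ± 0.12 and −0.23 ± 0.13. Of 36 nuclear genes of oxidative phosphorylation 34 were lower in RV, with a median of −0.16 and pair medians of −0.31, −0.09 and −0.07. Ndufs7, a subunit of complex I, had a log2 difference of −0.29 ± 0.12, and Sdha, of complex II, one of −0.21 ± 0.09. Of the 13 protein-coding genes of the mitochondrial genome 12 were lower in the fit, with pair medians of −0.14, 0.15 and −0.48, and mt-Co3 was at 14756, 10216 and 22659.9 CPM in LV against 4788, 7183 and 8153 CPM in RV, without overlap (−1.21 ± 0.47, adjusted p = 0.854). For glycolysis and glucose use 12 of 21 were lower, with a median of −0.03. Hk2, hexokinase 2, had −0.21 ± 0.11 at 6E13 and −0.69 in cKO hearts, where it was called (adjusted p = 0.00426, edgeR). In WT hearts the medians of fatty acid oxidation, nuclear oxidative phosphorylation and the mitochondrial genome lay on the RV side (0.14, 0.12 and 0.13). In cKO hearts these medians were −0.41, −0.34 and −0.49. The glycolysis median was −0.14 in WT and −0.26 in cKO hearts. The differences of these medians between groups were not tested.

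Junction genes, the family of the deleted gene, had small values on both sides. Of 24 genes of the desmosome and intercalated disc 18 were on the LV side, with a median of −0.07 and 0 called. Pkp4, a plakophilin relative, was at 129, 142 and 128 CPM in LV against 102, 115 and 115 CPM in RV, without overlap (−0.26 ± 0.08, adjusted p = 0.794). Fhl2, a LIM protein of the sarcomere, and Cdh2, the N-cadherin of the disc, had −0.24 ± 0.10 and −0.14 ± 0.09. Of 23 calcium handling genes 16 were on the LV side (median −0.07), among them Asph with −0.18 ± 0.08 and Jph2, which holds the dyad together, with −0.24 ± 0.11. The other 7 were on the RV side, among them Cacna2d1 with 0.16 ± 0.08, higher in 3 of 3 pairs. Of the list, 4 genes were higher and 9 lower in RV in 3 of 3 pairs (16.6% and 14.8% of all genes were), and 0 were called. In cKO hearts 8 of the junction genes and 3 of the calcium genes were called lower in RV, beside 2.19% of all genes.

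Ion channels held genes that set the action potential of each ventricle. Kcnd2, a pore subunit of the transient outward current, was at 25.4, 26.0 and 27.0 CPM in LV and 36.8, 46.3 and 45.5 CPM in RV, so the groups did not overlap and the LV values were within 2 CPM of each other. Its log2 difference was 0.70 ± 0.16 (adjusted p = 0.434, edgeR), beside 0.76 in WT and 0.35 in cKO. Kcnk3, the TASK-1 leak channel, went the other way in 3 of 3 pairs, at 217, 209 and 188 CPM in LV against 154, 156 and 183 CPM in RV (−0.32 ± 0.13), and in cKO it was called at −0.73 (adjusted p = 0.0067). Kcna4 had −0.57 ± 0.26. Of the 25 channels 16 were on the LV side, with a median of −0.13. Adrb1, the beta-1 adrenergic receptor, was at 22.8, 21.8 and 23.2 CPM in LV against 20.3, 18.15 and 20.8 CPM in RV (−0.19 ± 0.12).

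Chamber identity genes, the transcription factors and guidance cues that pattern the embryonic heart, gave 0 calls of 26 tested at 6E13. Slit2, a secreted guidance cue, was at 19.3, 12.4 and 15.1 CPM in LV and 28.5, 41.0 and 26.2 CPM in RV, without overlap (1.02 ± 0.28, adjusted p = 0.708, edgeR). Slit3 was higher in RV in 3 of 3 pairs (0.56 ± 0.17) and Fgf10, a growth factor of the second heart field, was at 0.147 to 0.381 CPM in LV and 0.459 to 2.03 CPM in RV. Of the Iroquois homeobox genes, Irx1, Irx2 and Irx5 were lower in RV in 3 of 3 pairs. Irx1 was at 4.22, 6.02 and 5.39 CPM in LV against 1.74, 2.00 and 1.54 CPM in RV, Irx2 at 5.07, 5.05 and 2.77 CPM against 1.93, 1.43 and 2.48 CPM, and Irx5 at 9.61, 8.19 and 6.72 CPM against 4.90, 5.81 and 3.20 CPM. None of the 3 overlapped, as for 4.92% of all genes, with log2 differences of −1.55 ± 0.68, −1.13 ± 0.68 and −0.84 ± 0.31. Irx3 had −0.45 ± 0.26, was lower in RV in 2 of 3 pairs and overlapped, and Irx4 had −0.05.

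None of the T-box factors passed the test: Tbx3 had a log2 difference of −0.40 ± 0.17, Tbx5, a factor of the left ventricle, −0.23 ± 0.21, Tbx2 −0.20 ± 0.27 and Tbx20 0.10 ± 0.14. Hand2, a factor of the right ventricle in the embryo, was at 33.8, 24.8 and 40.0 CPM in LV against 27.7, 23.99 and 36.9 CPM in RV, and Gata4, Gata6, Cited2, Wnt11 and Nkx2-5 had log2 differences of −0.10, 0.16, −0.16, 0.50 and 0.09. Irx4, Hey2, Heyl, Sema3c and Pcsk6 lay between −0.05 and 0.07. Mef2c was at 0 in the LV of animal 645 and at 13.2 to 30.3 CPM in the other 5 libraries, so its ventricle difference was uncertain, since the counts of a gene are summed from transcript estimates that can fall to 0. Of the 26 genes, 3 had an unadjusted p under 0.05 in each direction (5.56% of all genes in both directions together), with a median of 0.01.

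**Figure D4:**
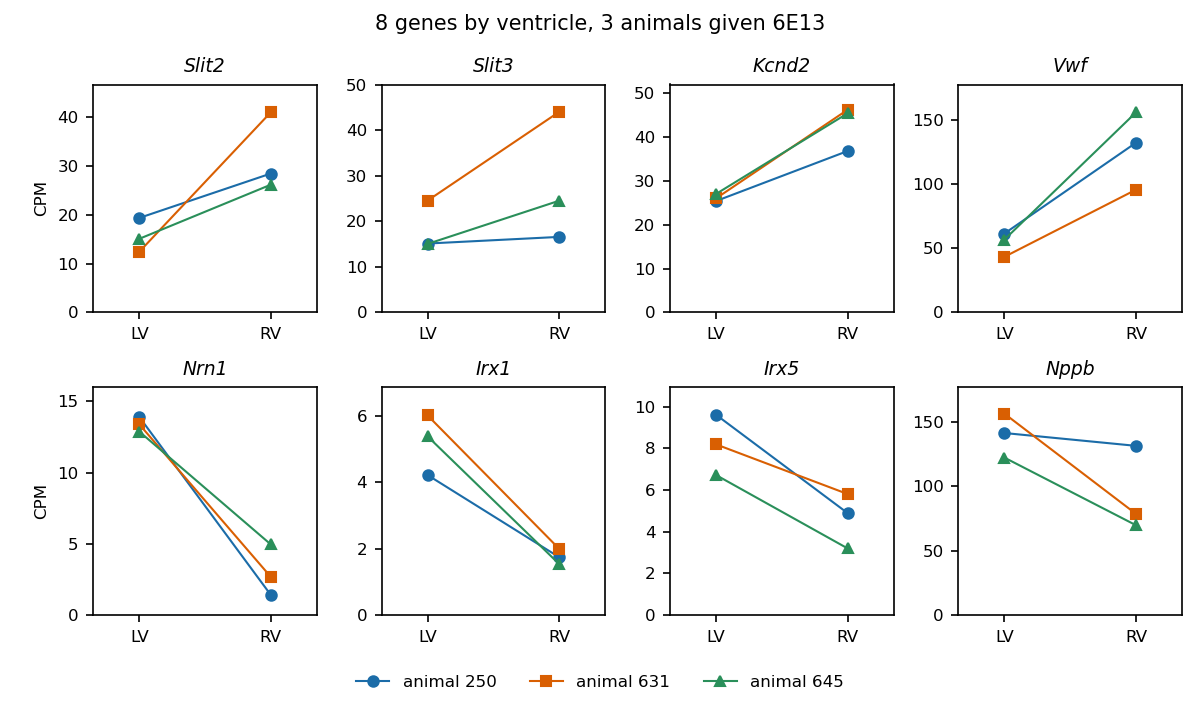
CPM (vertical axes, each starting at 0) in LV and RV of the 3 animals given 6E13, 1 line per animal, for 8 genes. Slit2, Slit3, Kcnd2 and Vwf rise from LV to RV, and Nrn1, Irx1, Irx5 and Nppb fall, in 3 of 3 animals.

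On the LV side no gene was called, and 15 were taken by smallest unadjusted p. Trabd2b, a metalloprotease that cuts Wnt ligands, was at 139.7, 151 and 143 CPM in LV against 80.4, 100.3 and 105 CPM in RV (−0.61 ± 0.10, adjusted p = 0.206, edgeR). Nrn1, neuritin, differed by the widest margin of the 15, at 13.9, 13.4 and 12.9 CPM in LV and 1.41, 2.67 and 4.95 CPM in RV, a log2 difference of −2.31 ± 0.43 (adjusted p = 0.240), and in cKO it was called at −1.77 (adjusted p = 0.0249). Dmpk, the kinase gene of myotonic dystrophy, was at 372, 323 and 346 CPM in LV against 274, 258 and 258 CPM in RV. Vegfa, the main endothelial growth factor, was at 199, 180.1 and 214 CPM in LV against 153, 140.3 and 161 CPM in RV (−0.38 ± 0.08, adjusted p = 0.347). In each of these 4 genes the LV values lay above all RV values, as for 4.92% of all genes.

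Wdr59, a subunit of the GATOR2 complex, was at 9.26, 10.2 and 10.2 CPM in LV against 5.66, 6.74 and 5.51 CPM in RV, and its differences in WT and cKO were 0.14 and 0.04. Rbm38, an RNA-binding protein, was at −0.40 ± 0.09 and had −0.38 in cKO, where it was called (adjusted p = 0.0262). Tead3, a transcription factor of the Hippo pathway, Gtpbp10, Pank4, Senp2, a SUMO protease, Socs2, an inhibitor of cytokine signalling, and Sf3b5, a splicing factor subunit, lay between −1.29 and −0.41. Senp2 was low, at 5.86, 9.54 and 5.15 CPM in LV against 4.59, 3.96 and 0.939 CPM in RV. Gm10800 and Gm10801 were at 20.6 to 98.0 CPM and 6.67 to 32.4 CPM in LV, and lower in RV in 3 of 3 pairs (log2 differences −1.13 ± 0.28 and −1.41 ± 0.26). Reads of such similar predicted genes can be shared between copies, and their values are uncertain. Nppb, the brain natriuretic peptide and a stress gene of the ventricles, was at 141, 156 and 122 CPM in LV against 131, 78.6 and 69.8 CPM in RV (−0.63 ± 0.31, adjusted p = 0.908). Most of its list went the other way: of 12 genes of the heart failure and fetal programme, 8 had a higher fitted level in RV. The list median was 0.07 with 0 called, and the pair medians were 0.68, −0.15 and −0.24 in animals 250, 631 and 645.

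Immediate early genes, which respond within minutes to stretch, handling or injury, were set by 1 library. Egr1 was at 561 CPM in the LV of animal 631 and at 60.1 to 135 CPM in the other 5 libraries, and Zfp36 at 75.1 CPM there and at 13.0 to 25.8 CPM in the other 5. The pair median over 20 such genes was −1.58 in animal 631, 0.18 in animal 250 and −0.01 in animal 645. The fitted median of −0.43, with 17 of 20 genes lower in RV, thus rested on that animal. Jun, among the 15 named genes, was at 78.6, 185 and 90.7 CPM in LV against 63.8, 74.9 and 75.2 CPM in RV, lower in RV in 3 of 3 pairs, and Klf4 was lower as well in 3 of 3 (−0.48 ± 0.19, adjusted p = 0.854). Atf5, a factor of the integrated stress response and the 1 gene called in WT hearts (−0.72), had −0.22 ± 0.08 at 6E13 (adjusted p = 0.831) and 0.23 in cKO.

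The ventricle differences at 6E13 were then read in genes that had been called in the contrast of the other 9 animals. The fit, its filter and its estimate of spread were shared with the 6E13 libraries, and leaving out 1 animal given 6E13 gave 1122 to 1132 such genes. In the fit over all libraries the mean RV effect of those 9 animals passed the test for 1374 genes (7.64% of all), 560 higher (3.11%) and 814 lower in RV (4.53%). Of the 560, 502 (89.6%) had a higher fitted level in RV at 6E13, beside 51.2% of all genes, and 331 were higher in 3 of 3 pairs. Of the 814, 92.5% were lower at 6E13, beside 48.3% of all genes, and 433 were lower in 3 of 3 pairs. The medians were smaller than in the animals that chose the genes, 0.29 against 0.54 and −0.14 against −0.30, and a value that passed a test is drawn away from 0 by that choice. The pair medians were 0.26, 0.34 and 0.26 for the RV-higher genes and −0.16, −0.16 and −0.09 for the RV-lower genes.

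**Figure D5:**
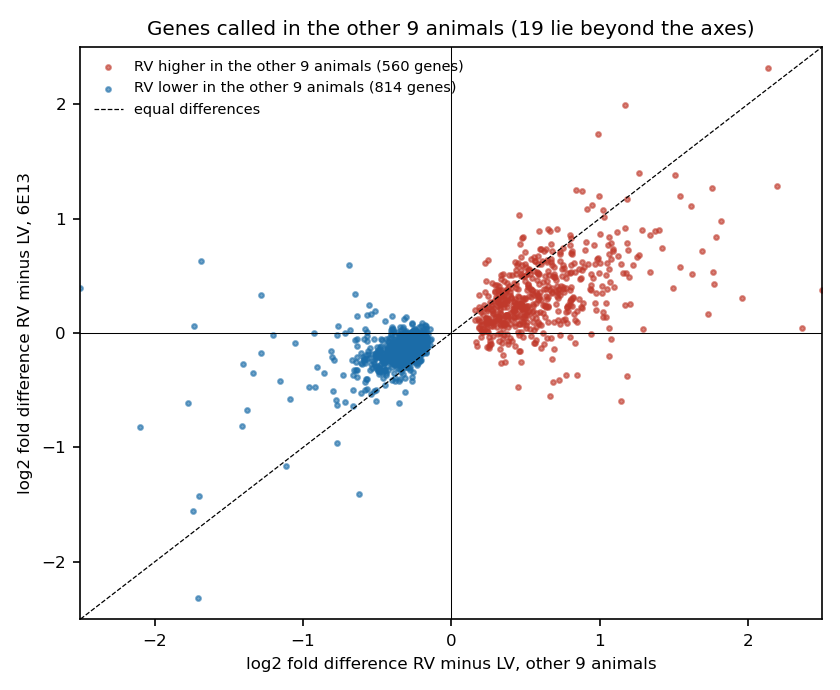
Log2 fold difference RV minus LV at 6E13 (vertical axis) against the mean of the other 9 animals (horizontal axis), for 560 genes higher and 814 genes lower in RV in those animals. Of the first, 502 lie above the horizontal zero line, and of the second, 92.5% lie below it, with medians nearer to 0 than on the horizontal axis.

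The genes that set the ventricles apart in untreated cKO hearts were read in the same way. The 340 genes higher in RV in cKO hearts had a median log2 difference of 0.78 there, 0.29 at 6E13 and 0.11 in WT, and 310 of them were higher at 6E13 and 222 in WT. The 393 genes lower in RV in cKO hearts had medians of −0.46, −0.14 and −0.09, and 360 were lower at 6E13 and 285 in WT. The cKO values include hearts whose RV libraries held atrial transcripts. When the 2 cKO animals with most Myl7 were left out, 195 genes were higher and 162 lower in RV in the cKO hearts that remained, and 173 and 129 of these had the same direction at 6E13.

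The difference between groups was tested gene by gene. Of 17981 genes, 0 had an RV effect at 6E13 that differed from that of WT hearts, and 0 one that differed from that of cKO hearts (edgeR, adjusted p under 0.05). Unadjusted p was under 0.05 for 811 genes (4.51%) against WT and 979 (5.44%) against cKO, and the smallest adjusted p values were 0.407 and 0.530. DESeq2 called 13 and 30 genes in the same comparisons, and limma voom 0 and 0. The median SE of such a difference was 0.33 against WT and 0.30 against cKO on the log2 scale, so a difference of that size between groups was not detectable in a single gene.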

How the data were processed

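RNA from LV and RV pieces was measured by RNA-seq. The authors trimmed reads with fastp, quantified them with Salmon 1.8.0 against GENCODE M30 transcripts (GRCm39) and summed them per gene symbol; they deposited estimated counts and TPM, and effective lengths in bases. The labels name polyA RNA and also a stranded Ribo-Zero Plus kit. Here the expected counts of the 24 libraries of 12 animals with both ventricles were rounded, genes with low counts dropped (filterByExpr), libraries scaled by TMM, and an RV effect per group fitted with animal as a block (edgeR 4.0.16, R 4.3.3, quasi-likelihood F test, 8 residual degrees of freedom, two-sided; limma 3.58.1 and DESeq2 1.42.0 as alternatives). SE is the fold difference divided by the root of F. Ventricles were paired because the titles give both the same animal number. P-values were adjusted by Benjamini-Hochberg over all 17981 genes and called under 0.05. The script was tested on simulated data.

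The members, gene lists and tests were chosen with earlier results of these data known, and 3 lists and 1 alternative were added after the values were seen. Named genes were the 15 per direction with the largest fold among called genes, filled by smallest p (mean of at least 5 CPM, same sign in 3 of 3 pairs), up to 4 per list by p, and chamber identity genes of at least 0.5 CPM; 1 gene that the rule names is not reported here. A count row without a gene name held at most 0.00097% of a library. The authors' own comparison values were not used, and animals with 1 ventricle were left out. Intervals and SE do not cover technical repeats of a heart.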

Additional observations from a re-analysis of the deposited data

Results flagged for a closer look

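Several RV effects pointed one way in all pairs at 6E13 and the other way in all pairs of another group, and none of these differences passed the adjusted test. The single genes scanned were those named in this report, many of them chosen by their p or sign at 6E13. Their direction at 6E13 was thus partly set by that choice. The share of all genes with such a pattern was not counted. The median of the matrix and fibrosis list differed between 6E13 and WT by 0.81 on the log2 scale (middle pair 0.44 against −0.38), and that difference of medians was not tested. Among its genes, the RV effect exceeded that of WT by 1.69 for Ltbp2 (adjusted p = 0.501), by 0.93 for Col6a3 (adjusted p = 0.407), by 0.87 for Mmp14 and by 1.16 for Col1a1, and Irf8 stood 0.70 above WT.

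On the LV side, Ndufs7, Sdha, Tcap, Acadl and Cited2 were lower in RV in each pair at 6E13 and higher in each WT pair, with differences of −0.51, −0.31, −0.49, −0.38 and −0.29. Against cKO, the same held for Atf5 (−0.45, adjusted p = 0.668) and Stat2 (−0.58, adjusted p = 0.757). The tests are edgeR interaction terms over all genes. With 3 pairs against 3 or 4, a gene has such a pattern by the signs of few values.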

How the results depend on the processing

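Directions were steady and calls were not. The log2 difference kept its sign in 23 of 23 other settings for H2-Aa (0.78 to 0.94) and Cd74 (0.72 to 0.92). The count of genes called at 6E13 (2) was 1 with the 3 animals alone, and that gene was neither H2-Aa nor Cd74. The count was 50 with DESeq2, 4 with limma voom, 4 with a robust prior, and 0 without the replicate block, on log2(TPM + 1), with effective length offsets or without the 2 cKO animals with most Myl7 (chosen after seeing the data). In WT (1) it was 6 without the filter, 135 with DESeq2, 3 with voom, 5 on log2(TPM + 1), and 0 without the block or those 2 cKO animals. In cKO (733) it was 66 without the block, 1438 with DESeq2, 1158 with voom, 453 on log2(TPM + 1) (404 higher, 49 lower), 370 with length offsets and 357 without those 2 animals. In the other 9 animals (1374) it was 371 without the block, 494 on log2(TPM + 1) (391 higher, 103 lower), 773 with offsets and 751 without those 2. Against WT (0) it was 13 with DESeq2, and against cKO (0) 30 with DESeq2 and 2 without those 2 animals. Leaving out 1 animal at a time gave 0 to 6 calls at 6E13, 0 to 11 in WT, 127 to 1051 in cKO, 583 to 2101 in the other 9 animals, and 0 to 3 against WT and against cKO. At 6E13 the count was 0 without animal 250, 645, 181, 253, 180, 264 or 636, 1 without 257, 4 without 637 and 6 without 177. Where an arm kept 1 pair, it was assumed to vary like the others. The sign turned for Sema3c on log2(TPM + 1) (−0.050) and with offsets (−0.036) and for Mef2c with voom (−0.26), and with animals left out the range crossed 0 for Pkp2 (−0.21 to 0.013), Irx4 (−0.11 to 0.017), Hey2 (−0.046 to 0.092), Heyl (−0.015 to 0.14), Sema3c (−0.14 to 0.15), Pcsk6 (−0.087 to 0.14) and Mef2c (−0.54 to 2.53). The distance between ventricles was 0.475 on log2(TPM + 1). The cause of these changes was not tested. Over all settings the list medians ran from 0.36 to 0.66 for matrix, −0.28 to −0.083 for fatty acid oxidation, −0.19 to −0.081 for oxidative phosphorylation, 0.063 to 0.21 for interferon, 0.064 to 0.50 for T, NK and B cell genes and −0.72 to 0.040 for immediate early genes. Library totals ran from 19364737 to 39381144 counts, and with 3 pairs the permutation test cannot go below 0.25.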
